A study of Rattus norvegicus with 4 samples.

Results

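Gene expression in rat hippocampal neurons was set against that in the hippocampal neural stem cells from which they were derived, on 2 of the 4 arrays of a series whose title names insulin biosynthesis. Both samples came from Fisher 344 rats, and the remaining 2 arrays held olfactory bulb stem cells and their neurons. Per the labels, total RNA of 3 independent experiments was mixed for each cell sample, so each group was 1 array of pooled RNA, called the neuron array and the stem cell array here after their labels. Age, culture conditions and the way the neurons were obtained are not given in the sources used here. Every non-control probe of the 2 arrays was taken, 41012 in all, with or without a gene symbol, and 40758 were kept after probes marked as outliers had been removed. Of the kept probes, 10783 carried 1 gene symbol and gave 8927 genes.

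Neural stem cells divide, and they can leave the cell cycle to form neurons, astrocytes or oligodendrocytes. In the adult hippocampus they lie in the dentate gyrus and supply new granule neurons throughout life. Dividing cells make large amounts of the proteins of DNA replication, mitosis and ribosome assembly, while neurons are known by their microtubule proteins, synaptic vesicle proteins, ion channels and neuropeptides.

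On the neuron array, genes of collagen-rich matrix, of matrix-cutting proteases, of mesenchymal cells, of astrocytes and of the interferon and chemokine responses were higher, by 12.65 log2 units for the matrix gene Mgp. Genes of DNA replication, mitosis, ribosome assembly, the nuclear pore, sterol synthesis and serine synthesis were lower, most of them by 1 to 4 log2 units. Genes of young neurons and of synaptic vesicles were lower more often than higher, while several neuropeptide genes were higher, among them Penk, which encodes the enkephalin precursor. With normexp background correction at an offset of 50, 106 of the 271 genes named here at 2-fold or more had differences smaller by over 1 log2 unit and 0 larger by as much. The offset is added to every signal and by itself makes differences with a dim side smaller, so this direction was largely built into the setting.

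All values are processed signals, in arbitrary fluorescence units, or differences of log2 signals after the 75th percentile of each array had been subtracted, neuron array minus stem cell array. That percentile was 486.6 on the stem cell array and 805.4 on the neuron array. A gene with the same signal on both therefore had a difference of -0.73. A gene entered the comparison when its probe was well above background, as the scanner software marks it, on at least 1 of the 2 arrays. Where a probe fell short on 1 array, that side took the higher of its own signal and the lowest signal that was well above background there, 11.4 on the stem cell array and 15.6 on the neuron array. Such a difference is given as "at least", a bound for this floor and scaling only. The floor is no sharp limit of detection, since Plp2 at 11.6 on the stem cell array was still not well above background. With other processing such a value could come out smaller, as for Pdgfrb, at 8.68 here and 6.07 at its lowest. Differences of 1 log2 unit (2-fold) or more were counted. With 1 array a side nothing could be tested, no difference has a replicate check, and precision is limited by the number of arrays. The arrays lay on 2 slides, so slide and cell state cannot be told apart. For probes printed 10 times, the SD of the difference between 1 spot on each array had a median of 0.10 log2 units, which is the noise of spots and not of cultures.

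Of 28275 probes compared, 5687 (20.1%) were higher and 6963 (24.6%) lower on the neuron array, 44.7% either way. Of 6652 genes compared, 1454 (21.9%) were higher and 1788 (26.9%) lower, 48.7% either way, while 3410 lay within 2-fold. These shares are the background against which each gene list is read. The higher genes reached much larger differences: 909 were higher by 2 log2 units or more, 277 by 5 or more and 72 by 8 or more, against 428, 2 and 0 lower genes. Of the higher genes, 625 were bounds, as were 117 of the lower ones. Among the genes well above background on both arrays, 829 were higher and 1671 lower, and higher genes made up 33.2% of those counted instead of 44.8%. The scaling of the arrays moved this balance as well: higher genes made up 28.8% with scaling to the median and 65.6% with scaling to the E1A spike-in controls. The median of all genes lay at -0.32, at -0.78 with median scaling, at -0.18 with quantile normalization and at 0.10 with spike-in scaling, and each difference below has to be read against that shift.

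**Figure D1:**
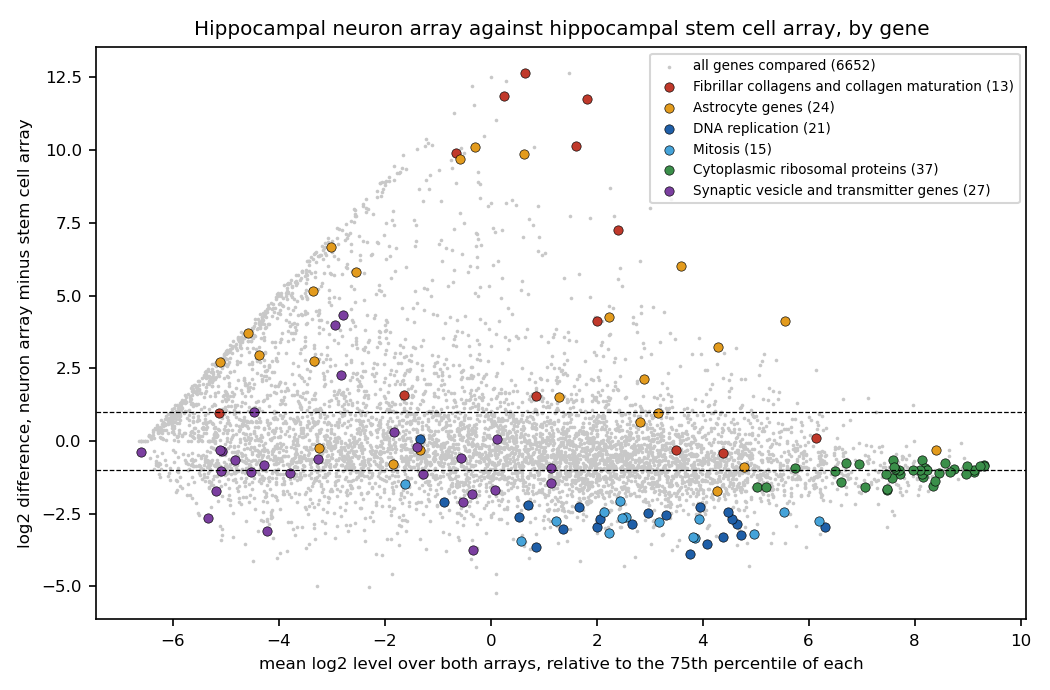
Log2 difference of each of the 6652 genes compared (neuron array minus stem cell array, y axis) against its mean log2 level over both arrays relative to the 75th percentile of each (x axis); coloured points are members of 6 gene lists and dashed lines mark differences of 1 log2 unit. Collagen and astrocyte genes reach far above the upper line, replication and mitosis genes lie below the lower one (except Tyms at 0.08), and ribosomal protein genes gather around it at the bright end; the straight upper edge on the left is where the stem cell side is a bound.

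The balance also moved with brightness. With the genes split by mean level into 4 groups of 1663, 37.2% of the dimmest group were higher and 16.2% lower, with a median difference of 0.43. In the brightest group 6.55% were higher and 40.4% lower, with a median of -0.82. The groups between them had medians of -0.05 and -0.47. Bright lists, such as ribosomal proteins and the proteasome, are read against this as well. The part of brightness in the differences was not tested.

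The label of the neuron array was checked against cell type markers, and neuronal markers as a group went against it. Of 13 neuronal markers with a probe, 2 were higher and 6 lower, the median difference was -0.99, and their summed signal, in multiples of each array's 75th percentile, was 50.6 on the stem cell array and 8.49 on the neuron array. Such sums add probes of unlike brightness, and 1 bright probe can make up most of one, as that of Mapt did on the stem cell array. Mapt, which encodes the axonal microtubule protein tau, had a signal of 19602 on the stem cell array and 2642 on the neuron array, a difference of -3.62. The neuronal tubulin gene Tubb3 differed by -2.73, and Syp and Syt1, which encode proteins of synaptic vesicles, were at least 8.48-fold and 6.27-fold lower because neither was well above background on the neuron array. Elavl3, an RNA-binding protein gene of neurons, differed by -2.47 and Syn1, a synaptic vesicle phosphoprotein gene, by -1.11. Against these, Stmn2, a microtubule regulator gene of growing axons, went from 3.16 to 1076 (at least 5.83), and Snap25, a component of the vesicle fusion machinery, from 16.05 to 416 (3.97). Map2, Nefm, Nefl, Elavl4 and Dcx lay within 2-fold, at 0.66, -0.32, -0.37, -0.99 and 0.23. No named probe measured Rbfox3.

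Markers of some other cell types stood higher on the neuron array. All 7 mural cell and fibroblast markers with a probe were higher, with a median of 8.07, and their summed signal in the same unit was 0.111 on the stem cell array, where only Col1a2 was well above background, and 381 on the neuron array. Of 10 astrocyte markers, 8 were higher and 1, Aldoc (-1.71), was lower, and their summed signal was 43.3 and 127. Of 8 microglial markers, 4 were higher and 0 lower, with sums of 0.858 and 2.78, while the defining genes Itgam and Cx3cr1 were well above background on neither array. Of 5 endothelial markers, 3 were higher, with sums of 0.335 and 9.34, and Pecam1 was on neither array. Of 8 oligodendrocyte markers, 0 were higher and 3 lower, with sums of 309 and 39.4, and Mag was on neither array. Of 5 ependymal markers, 2 were higher, and of 6 Schwann and ensheathing cell markers 1 was higher and 2 were lower. Of 8 neural stem cell markers, 3 were higher and 4 lower, with sums of 84.6 and 57.0. The part of these cells in any difference below was not tested, and in bulk RNA fewer cells of a type and less RNA per cell cannot be told apart.

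**Figure D2:**
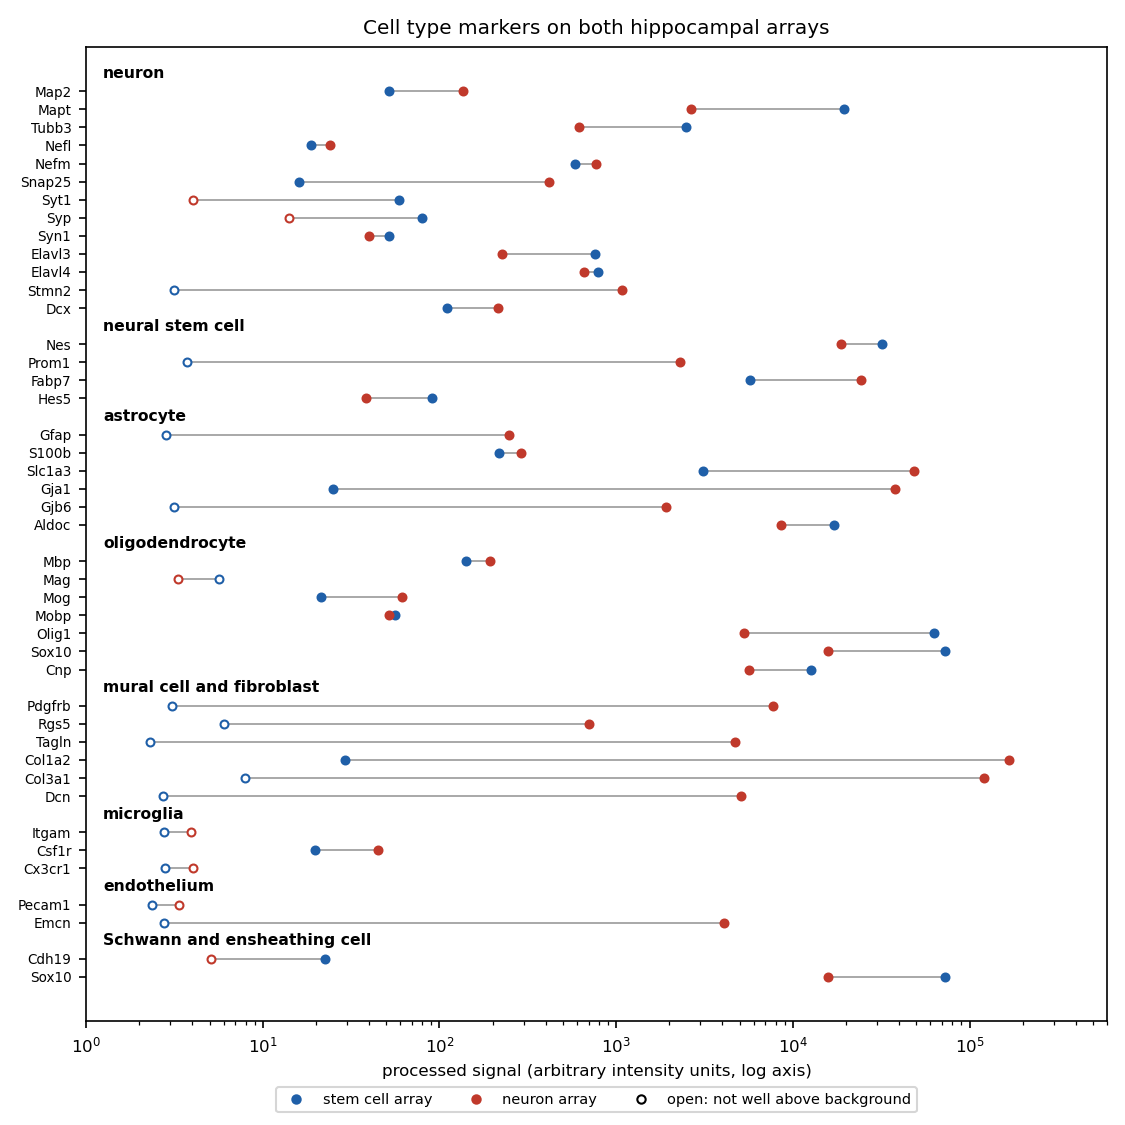
Processed signal (arbitrary intensity units, log axis) of the cell type markers named in the text on the stem cell array (blue) and the neuron array (red), with open symbols where the probe was not well above background. Mapt, Tubb3 and Syp lie lower in red than in blue, while each mural cell and fibroblast marker shown lies higher in red, from Rgs5 at 704 to Col1a2 at 166588. Signals of different probes are not comparable with each other.

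Genes of connective tissue matrix were among the largest differences. Mgp, a matrix protein that inhibits calcification, had a signal of 16.9 on the stem cell array and 179899 on the neuron array, a difference of 12.65. Col1a2, a chain of type I collagen, went from 29.2 to 166588 (11.75), and Col3a1, the type III collagen gene, from 7.97, not well above background, to 121333 (at least 12.65). Pcolce, which promotes the removal of the collagen propeptide, differed by 10.12, and Bgn, the proteoglycan biglycan, went from 264 to 303660.3 (9.44). The fibronectin gene Fn1 (8.31), the secreted protease gene Htra1 (8.18), Srpx (8.17) and Ccn2, a matricellular growth factor gene (8.34), also stood among the first 20. With normexp background correction Mgp and Col1a2 stood at 10.29 and 10.27, while Fn1, Htra1, Srpx and Ccn2 came to 8.07, 6.36, 6.54 and 6.46.

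Other leading higher genes had varied functions. Lgals3, which encodes galectin-3, went from 25.9 to 47299 (10.11), the gap junction gene Gja1 from 25.0 to 38023 (9.88) and the chemokine gene Cxcl1 from 16.8 to 16801 (9.24). Ppp1r1a, an inhibitor of protein phosphatase 1, differed by 8.86, Ephx1, a detoxifying epoxide hydrolase, by 8.82, and Hsd11b1, which regenerates active glucocorticoid, by 8.10. Ppic (8.91), Apeh (8.28), Itm2a (8.06), S100a6 (8.002), the tropomyosin gene Tpm2 (8.70) and C1qtnf6 (8.06) completed the 20. The probes of some genes disagreed in size: the 2 probes of C1qtnf6 gave 1.49 and 8.06 and the 3 probes of Tpm2 from 7.004 to 10.32. Among genes measured on the neuron array alone, the complement inhibitor gene Serping1 reached 110272 (at least 12.51, with a second probe at 5.65), the thyroid hormone-binding protein gene Crym 100526 (at least 12.38), Retn, which encodes the hormone resistin, 57165 (at least 11.56) and Cfd, complement factor D, 39709.8 (at least 11.04). Plp2, Upk1b, the keratin gene Krt18 and the imprinted gene Ndn followed, at least 10.499, 10.38, 10.24 and 10.19 higher. Other probes gave smaller differences, 4.02 for Upk1b, 8.30 for Krt18 and 5.17 for the lowest probe of Ndn.

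The leading lower genes held genes of glial progenitors and of neurites. Olig1, a transcription factor of the oligodendrocyte lineage, had a signal of 63169.7 on the stem cell array and 5316 on the neuron array (-4.30), and Gap43, a protein of growing axons, went from 12322 to 1034 (-4.30). Nxph1, which encodes a ligand of neurexins, differed by -5.02 on its brighter probe and by -2.75 on the other. B3gat2 (-4.58), the transcription factor gene Batf3 (-4.56), the pro-death BH3 genes Bik (-4.33) and Hrk (-4.06), the actin regulator gene Coro1a (-4.12), Scrg1 (-4.04) and Lypd1 (-3.92) followed. The spectrin-binding cytoskeletal gene Add2 (-3.79), Nell2 (-3.74), Pnlip (-3.72), Hrob (-3.70) and Wscd1 (-3.69) were also among the 20 lowest, as were Crmp1, Nup210, Rab3c and Mcm7, which are given with their groups. Of genes no longer well above background on the neuron array, Kcnk10, a potassium channel gene, was at least 31.4-fold lower, Plppr1 at least 17.5-fold and Ptpro at least 13.8-fold.

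Matrix genes were higher as a group. Of 13 genes of fibrillar collagens and their maturation compared, 9 were higher and 0 lower (median 4.12). They included Loxl1, a cross-linking oxidase (at least 11.84), the lysyl hydroxylase gene Plod1 (at least 9.91) and the collagen chaperone gene Serpinh1, which went from 208 to 52937 (7.26), while Plod3 (-0.42), Col5a3 (-0.32) and P4hb (0.11) lay within 2-fold. Basement membrane and pericellular matrix genes had 12 of 15 higher and 1 lower (median 3.12). Spp1, the osteopontin gene, reached 21540.4 (at least 10.15), Efemp1 was higher by at least 7.41, and Fbn1, the fibrillin gene, by 4.39, whereas Tnr, a matrix glycoprotein of the central nervous system, was lower (-1.21). Of 22 proteoglycan genes, 14 were higher and 2 lower (median 3.09). The higher ones were led by Bgn, Fmod (at least 8.24), Dcn (at least 8.07) and Gpc3 (at least 6.63), and the lower ones were the brain proteoglycan genes Bcan (-1.71) and Ptprz1 (-1.27).

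Proteases that cut matrix stood higher with it. Of 21 matrix proteases and inhibitors, 17 were higher and 1 lower, with a median of 4.85, which came to 2.59 with normexp background correction. Mmp14, a membrane-bound matrix metalloprotease gene, reached 46513 from a stem cell signal of 3.20 (at least 11.26), the secreted gelatinase gene Mmp2 went from 125 to 42231 (7.68), and Mmp23 was higher by at least 7.93. The anti-angiogenic serpin gene Serpinf1 differed by 7.43. Mmp16 was the exception (-1.89), and Timp2, an inhibitor of these proteases, was bright on both arrays at 124681 and 203893 (-0.02).

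Mesenchymal and contractile genes followed the same direction. Of 20 mural cell, fibroblast and mesenchymal genes, 17 were higher and 1, Notch3 (-1.19), was lower, with a median of 4.73 (2.72 with normexp). Pdgfrb, the receptor that marks pericytes, went from 3.05 to 7748 (at least 8.68), the potassium channel gene Kcnj8 from 7.79 to 7729 (at least 8.67), and the mesenchymal homeobox gene Prrx1 from 33.8 to 7885 (7.14). Twist2 and Zeb2 lay within 2-fold (0.90 and 0.18). Of 16 contractile genes, 9 were higher and 0 lower: Tagln reached 4705 (at least 7.96) and the desmin gene Des differed by 4.35, while Tpm4 (-0.28), Actg2 (-0.04) and Tpm1 (0.18) were close to 0. Of 22 integrin, caveola, annexin and S100 genes, 16 were higher and 0 lower (median 2.61). Anxa1, an annexin that dampens inflammation, went from 207 to 53519.6 (7.29), while Cav1 differed by -0.86. Many of these are bounds: among genes well above background on both arrays, 6 of 9 mesenchymal genes, 6 of 12 proteoglycan genes and 8 of 12 protease genes were higher.

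**Figure D3:**
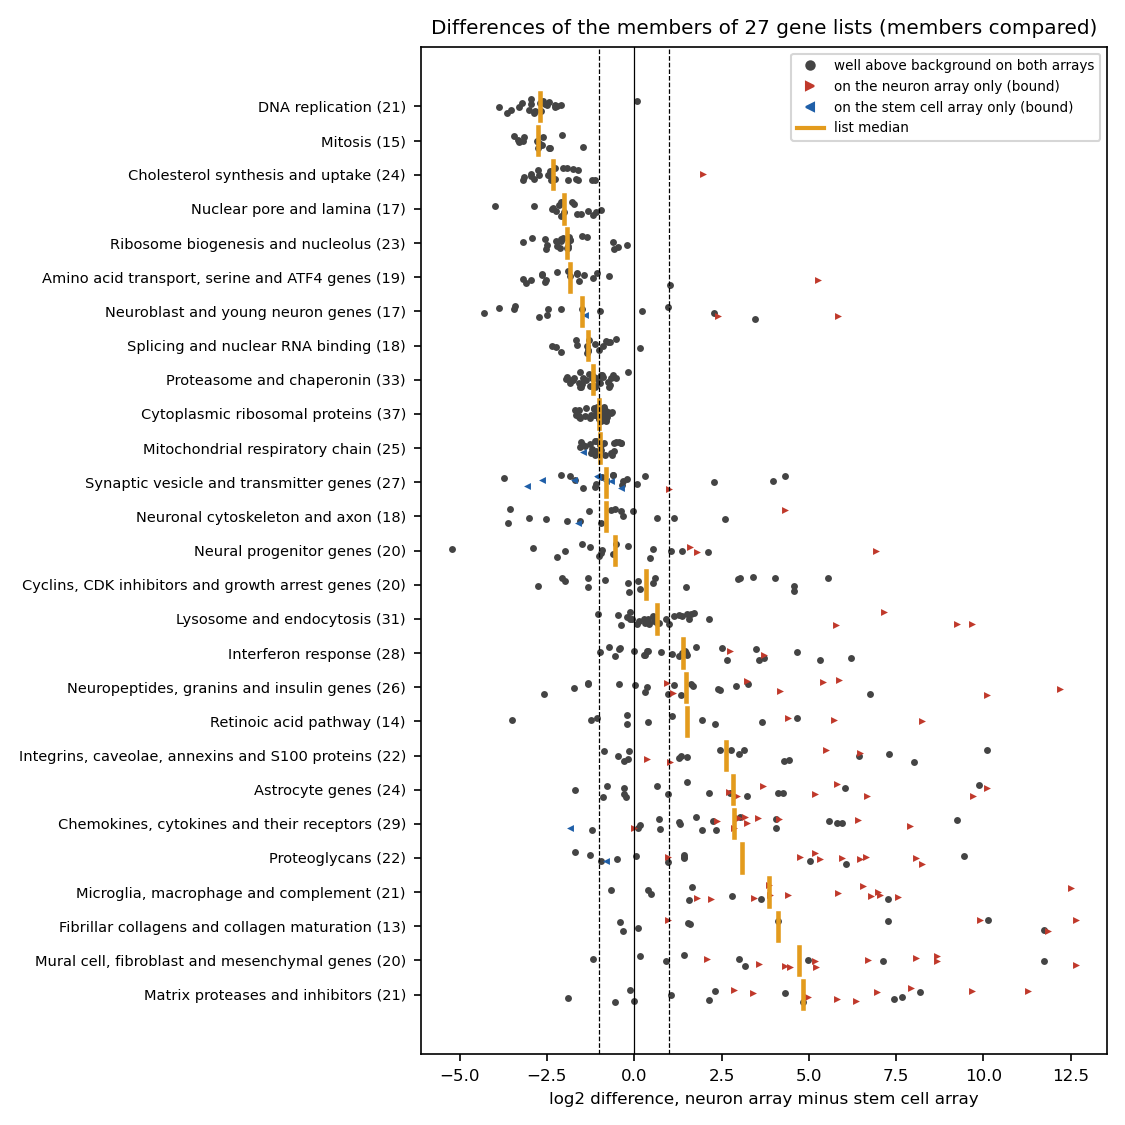
Log2 difference (neuron array minus stem cell array, x axis) of every compared member of 27 gene lists, with the number of members in brackets; circles were well above background on both arrays, triangles on 1 array only and are bounds, and the orange bar is the list median. Replication, mitosis, cholesterol and ribosome assembly genes lie mostly to the left, and matrix and mesenchymal genes spread far to the right.

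Genes of DNA replication were lower almost without exception. Of 21 compared, 20 were lower and 0 higher (median -2.69), and all were well above background on both arrays. Mcm7, a subunit of the replicative helicase, had a signal of 25126 on the stem cell array and 2843 on the neuron array (-3.87). Orc1, which marks replication origins, differed by -3.65, the primase gene Prim1 by -3.53, the polymerase delta gene Pold1 by -3.30, the chromatin assembly gene Chaf1b by -3.22 and the maintenance DNA methyltransferase gene Dnmt1 by -3.02. Even Pola2 (-2.08) and Rrm2 (-2.21), the lower members nearest to 0, were more than 4-fold lower. Tyms, which makes thymidylate, was the exception at 0.08, with signals of 187 and 328.

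Mitotic genes shared that pattern. All 15 compared were lower, with a median of -2.75 and a range from -3.44 to -1.46. Aurkb, a kinase of the chromosomal passenger complex, had a signal of 2381 on the stem cell array and 363 on the neuron array (-3.44), Ccnb1, the mitotic cyclin B1, of 22463 on the stem cell array and 3692 on the neuron array (-3.33) and Plk1, a kinase of mitotic entry, of 46337 on the stem cell array and 8391 on the neuron array (-3.19). Birc5 (-3.31), Aurka (-3.15) and Kif22 (-2.78) came next, and Cdk1, the kinase that cyclin B activates, differed by -2.45. The cell cycle genes were far from absent on the neuron array, where Cdk1 still had a signal of 15893. DNA repair genes had 8 of 11 lower and 0 higher (median -1.78), led by the uracil glycosylase gene Ung (-3.01), Fancd2 (-2.85) and the checkpoint kinase gene Chek1 (-2.39), while Brca2 (-0.31) and Nbn (0.12) lay within 2-fold.

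The promoters of 4 cell division genes are shown, because promoters of mitotic genes share short motifs. Each line holds the 150 bases before the annotated start, read 5′ to 3′ on the strand of the gene, from RefSeq with the rat assembly GRCr8, and capitals mark matches to CCAAT, or to TTTGAA, on either strand.
Ccnb1: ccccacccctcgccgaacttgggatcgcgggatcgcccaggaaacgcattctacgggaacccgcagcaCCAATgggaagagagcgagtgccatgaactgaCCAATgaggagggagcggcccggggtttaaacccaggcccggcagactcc
Cdk1: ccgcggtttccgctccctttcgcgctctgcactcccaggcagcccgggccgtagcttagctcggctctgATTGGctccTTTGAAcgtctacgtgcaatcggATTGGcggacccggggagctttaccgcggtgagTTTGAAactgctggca
Plk1: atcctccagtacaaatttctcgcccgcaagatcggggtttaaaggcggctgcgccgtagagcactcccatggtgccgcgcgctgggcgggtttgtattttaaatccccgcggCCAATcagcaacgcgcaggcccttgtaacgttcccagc
Mcm7: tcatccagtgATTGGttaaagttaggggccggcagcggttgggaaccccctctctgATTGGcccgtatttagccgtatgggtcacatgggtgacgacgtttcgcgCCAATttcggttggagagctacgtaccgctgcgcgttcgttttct
The window of Ccnb1 lay at chr2:33655226-33655375 on the minus strand, that of Cdk1 at chr20:19265143-19265292 on the plus strand, that of Plk1 at chr1:186147508-186147657 on the plus strand and that of Mcm7 at chr12:22163179-22163328 on the minus strand. In these lines Cdk1 holds 2 matches to each motif, and Ccnb1, Plk1 and Mcm7 hold 2, 1 and 3 matches to CCAAT and 0 to TTTGAA.

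Promoter windows of 300 bases, from 250 before to 50 after the annotated start, were searched on both strands, and no searched motif contains another. CCAAT, the core of the element bound by the factor NF-Y, was present in 9 of 12 mitosis promoters with a RefSeq entry (75%), against 37.7% of all 27457 promoters and 39% of the 5391 promoters of compared genes. TTTGAA, the core of the cell cycle homology region of mitotic promoters, was also in 9 of 12 (75%), against 18.1% and 11.7%. Of 17 replication promoters, 10 (58.8%) held CCAAT, 0 held TTTGAA and 3 (17.6%) held TTCCCGCC, the E2F element, against 2.02% of all promoters. Other lists reached such shares too. TTCCCGCC was in 37.5% of 8 DNA repair and 22.2% of 18 splicing promoters, and CCAAT in 77.8% of 9 Schwann and ensheathing cell promoters. A match is a description of the letters and not a bound site.

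Cyclins and cell cycle inhibitors did not move as 1 group. Of 20 cyclin, cyclin-dependent kinase, inhibitor and growth arrest genes, 8 were higher and 5 lower, and the median of 0.35 became -0.11 with median scaling. Gadd45a, a DNA damage-inducible gene, went from 376 to 29369 (5.56), Cdkn1a, the inhibitor p21, from 810.1 to 21913 (4.03), and Cdkn2b, the inhibitor p15, from 318 to 5516 (3.39). Ccng1 (4.59), Ccnd2 (4.58) and Btg2 (3.04) were higher too. The kinase genes Cdk2 (-2.76) and Cdk4 (-2.06) were lower. Cdkn2a, the locus of p16 and ARF, was bright on both arrays at 34734 and 51401 (-0.16).

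Ribosome assembly genes were lower in company with the cell cycle genes. Of 23 nucleolar genes, 19 were lower and 0 higher (median -1.94). Gar1, which guides pseudouridylation of ribosomal RNA, had a signal of 6882 on the stem cell array and 1255 on the neuron array (-3.18), and Polr1b, a subunit of RNA polymerase I, of 3185 on the stem cell array and 689.7 on the neuron array (-2.93). Fbl, the fibrillarin methyltransferase, went from 230697 to 65265 (-2.55), and Myc, a transcription factor that drives ribosome production, from 18178 to 5200.3 (-2.53). The genes Npm1, Nop58 and Ncl were closest to 0, at -0.21, -0.46 and -0.58. The nuclear pore and lamina list ran in parallel, with 16 of 17 lower, 0 higher and a median of -2.01. Nup210, a membrane protein of the pore, went from 12756 to 1340.3 (-3.98), Nup85 differed by -2.86, the import adaptor gene Kpna2 by -2.35 and the lamin gene Lmnb1 by -2.31, while Lmna, the A-type lamin gene, was the 1 member within 2-fold (-0.94). Both lists stayed below -1 in their median with each scaling.

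Housekeeping lists lay near the threshold, so their counts followed the scaling. All 37 cytoplasmic ribosomal protein genes had negative differences, between -1.70 for Rpl18 and -0.65 for Rpl5, with a median of -1.01. Of them 19 counted as lower, against 37 with median scaling, 6 with spike-in scaling and 0 with quantile normalization. Respiratory chain genes had 12 of 25 lower (median -0.99), against 21, 4 and 2. Proteasome and chaperonin genes had 21 of 33 lower (median -1.18), against 31, 12 and 4. Members of that list ran from -1.97 to -0.17, and the chaperonin subunit genes Cct6a (-1.97), Cct5 (-1.84) and Cct2 (-1.75) were among its lower members. Splicing genes had 12 of 18 lower (median -1.32), led by Snrpa (-2.37), Srsf2 (-2.24) and Srsf3 (-2.11), against 5 with spike-in scaling and 7 with quantile normalization. Tars1, Yars1 and Sars1 led the 8 lower of 13 aminoacyl-tRNA synthetase genes, at -2.38, -2.23 and -1.99, a count of 5 with spike-in scaling and 4 with quantile normalization.

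**Figure D4:**
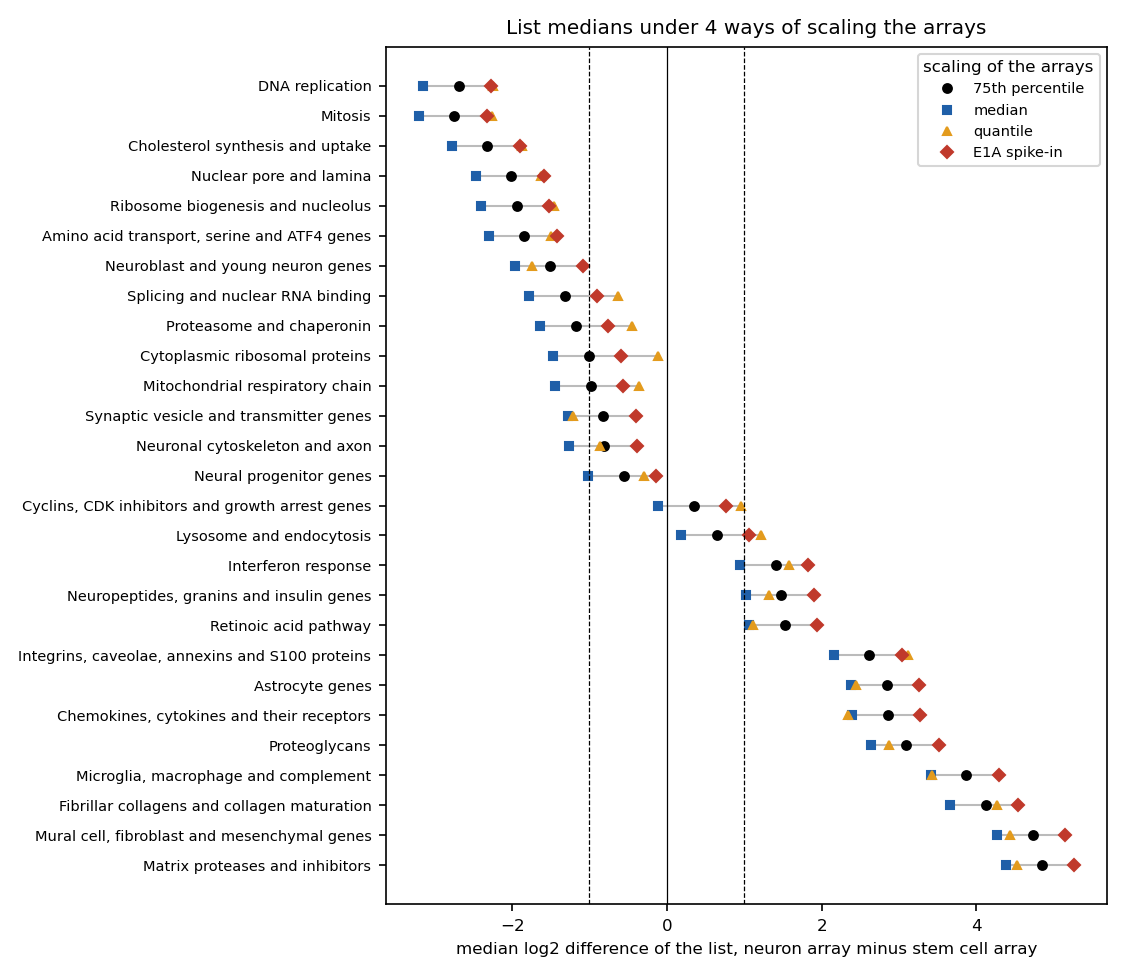
Median log2 difference of 27 gene lists (x axis, neuron array minus stem cell array) with 4 ways of scaling the arrays: 75th percentile (black circles), median (blue squares), quantile normalization (orange triangles) and E1A spike-in controls (red diamonds). The replication list lies between -3.15 and -2.25, far from 0, the ribosomal protein list between -1.47 and -0.12, and of the lists shown only that of cyclins, inhibitors and growth arrest genes crosses 0.

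Sterol genes were lower with 1 exception. Cholesterol synthesis and uptake genes had 23 of 24 lower and 1 higher (at least 1.98), with a median of -2.32. Acat2, which joins the first acetyl units, went from 108720.3 to 19617 (-3.20), the mevalonate enzyme genes Mvd and Mvk differed by -3.15 and -2.95, Fdps by -2.96 and the late enzyme gene Dhcr7 by -2.87. Sc5d (-1.60), Insig1 (-1.20) and Nsdhl (-1.11) were the lower members nearest to 0. CCAAT was in 14 of 17 promoters of this list (82.4%), while TCACNCCAC, a form of the sterol regulatory element, was in 0 of 17 and in 1.13% of all promoters. Among fatty acid and lipid transport genes, the synthesis genes Acly (-2.17) and Fasn (-1.87) were lower and several transport genes higher. Fabp4, a fatty acid carrier of fat cells and macrophages, reached 12629 (at least 9.38), the lipoprotein lipase gene Lpl 5349 (at least 8.14), the sterol exporter gene Abcg1 went from 34.6 to 8005 (7.13) and Apoe from 729 to 78891 (6.03). That list of 23 had 9 higher and 6 lower, and its median of -0.04 changed sign with the scaling.

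Genes of serine synthesis and amino acid supply, many of them targets of the stress factor ATF4, were lower. Of 19, 16 were lower and 2 higher (median -1.84). Psph and Psat1, both enzymes of serine synthesis, differed by -3.19 and -3.09, and Asns, the asparagine synthetase gene, went from 37595 to 8063 (-2.95). The amino acid transporter gene Slc7a5 (-2.63), the ATF4 target Trib3 (-2.63) and Shmt2 of mitochondrial folate metabolism (-2.57) followed. The cationic amino acid transporter gene Slc7a3 went the other way, from 2.64 to 727 (at least 5.27), as did the glutamine transporter gene Slc1a5 (1.04). ATTGCATCA, the response element of ATF4, was in 0 of 16 promoters of the list and in 0.193% of all promoters.

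Progenitor genes were split. Of 20 compared, 6 were higher and 7 lower (median -0.56). The lower ones included Sox11 (-2.89), Sox6 (-2.22), the Notch target Hes5 (-1.98) and the intermediate filament gene Nes, which encodes nestin and remained bright at 31885 and 18647 (-1.50). Vim was bright on both arrays and differed by -0.18. The higher ones included Prom1, a membrane protein of stem and ependymal cells, from 3.74 to 2289 (at least 6.92), the FGF receptor gene Fgfr1 (2.11), and Fabp7 of radial glia, from 5722 to 24464 (1.37).

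Genes of neuroblasts and young neurons were mostly lower. Of 17, 10 were lower and 4 higher (median -1.51). Crmp1, a mediator of semaphorin signals in axons, had a signal of 417 on the stem cell array and 47.0 on the neuron array (-3.87), Dlx5, a factor of interneuron progenitors, of 2531 on the stem cell array and 381 on the neuron array (-3.46), and Calb2, the calcium-binding protein calretinin, of 18613 on the stem cell array and 2902 on the neuron array (-3.41). Cd24, a surface protein of neuroblasts and ependymal cells, was higher (3.46), as were the kinase gene Dclk1 (2.29) and Calb1, which encodes calbindin of mature granule cells (at least 2.41, at a signal of 100.3). The proneural genes Neurod1 and Neurog1 were well above background on neither array. The cytoskeletal list had 8 of 18 lower and 3 higher (median -0.81). Uchl1, an abundant neuronal hydrolase, went from 41986 to 5885 (-3.56) and the neurofilament gene Ina from 3624 to 742 (-3.01), while Thy1 (at least 4.31), Ank3, which organises the axon initial segment (2.61), and Prph (1.15) were higher.

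Synaptic vesicle genes were lower more often than higher. Of 35 with a probe, 27 could be compared, 12 were lower and 3 higher, and 8 of the compared genes were well above background on the stem cell array alone. Rab3c, a vesicle GTPase gene, had a signal of 1407 on the stem cell array and 175 on the neuron array (-3.74), and Syt11 (-2.09) and Rab3a (-1.83) were lower as well. The higher ones were Sncg, from 15.7 to 518 (4.32), Snap25 and the complexin gene Cplx2 (2.27). Slc32a1, the vesicular GABA transporter gene, differed by -0.21. The glutamate transporter gene Slc17a7 and the GABA synthesis gene Gad2, both absent from the comparison, were well above background on neither array. The related transporter gene Slc17a6 was well above background on the neuron array alone, from 16.2 to 51.6 (at least 0.99). Glutamate and GABA receptor genes had 5 of 26 higher and 6 lower. Their shares, 19.2% and 23.1%, lay near the 21.9% and 26.9% of all genes compared. Of the 26, 6 were well above background on the neuron array alone and 3 on the stem cell array alone. The kinase gene Camk2b went from 4376 to 662 (-3.45) and the scaffold gene Shank3 differed by -2.54, while the AMPA receptor gene Gria3 went from 34.7 to 608 (3.41). Camk2a, Gria1 and Grin2b, genes of mature hippocampal excitatory synapses, were well above background on neither array. Channel genes were spread on both sides of 0: 9 of 22 stood higher and 7 lower (median 0.04). Kcnk2, a background potassium channel gene, reached 9399 (at least 8.96), while Kcnh2 (-2.29), Cacna1b (-1.85) and Scn8a (-1.66) were lower.

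Neuropeptide genes were higher more often than lower, while granin genes lay on both sides. Of 26 neuropeptide, granin and insulin genes compared, 16 were higher and 4 lower (median 1.48), and 9 of the 18 well above background on both arrays were higher. With normexp 13 and with median scaling 13 of the 26 were higher. Penk reached 89220.2 from 2.71 (at least 12.20 on its brighter probe and at least 2.12 on the other, with a mean of 7.16). Cpe, a carboxypeptidase that trims prohormones, reached 21735 from 11.9 (at least 10.11), the granin gene Scg2 went from 23.7 to 4273 (6.76), and Pdyn, the dynorphin precursor of granule cells, from 2.54 to 1097 (at least 5.86). The somatostatin gene Sst reached 809 (at least 5.42) and the prohormone convertase gene Pcsk1 363 (at least 4.18). Scg3 (-2.59), the convertase inhibitor gene Pcsk1n (-1.71), Vgf (-1.33) and Chga (-1.33) were the lower members. TGACGTCA, the cAMP response element, was in 3 of 21 promoters of this list (14.3%), those of Scg2, Sst and Vgf, against 3.13% of compared genes. The share was not particular to this list: it was 18.75% of 16 promoters in the cyclin and inhibitor list and 13.6% of 22 in the synaptic vesicle list.

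Both insulin genes were measured. Ins1 had a signal of 84.2 on the stem cell array and 352 on the neuron array (1.34), and Ins2 of 24.3 on the stem cell array and 130.0 on the neuron array (1.69). Their probes may bind the RNA of the near-identical copy. With normexp background correction both fell short of 2-fold, at 0.86 for Ins1 and 0.46 for Ins2, and with median scaling Ins1 came to 0.88 and Ins2 to 1.23. Of 19 genes of insulin and IGF signalling, 9 were higher and 2 lower. The higher ones were mainly IGF-binding proteins and growth factors: Igfbp6 went from 21.3 to 1131 (5.01), Igfbp2 from 489 to 13985 (4.11) and Igfbp3 from 14740.5 to 133270.1 (2.45). Slc2a4, the insulin-responsive glucose transporter gene, reached 309 (at least 3.72). The insulin receptor gene Insr had signals near background of 21.3 and 29.0 (-0.28), and Irs1, which relays its signal, was lower (-1.14). The list median of 0.86 came to -0.24 over the 17 members well above background on both arrays.

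Astrocyte genes were higher, and oligodendrocyte genes were mixed. Of 24 astrocyte genes, 16 were higher and 1 lower, with a median of 2.84, while 8 of 16 well above background on both arrays were higher and the normexp median was 1.60. Gfap, the astrocyte intermediate filament, reached 246 from 2.85 (at least 3.70), the glutamate transporter gene Slc1a3 went from 3099.5 to 48560.5 (3.24), Sparcl1, a secreted synapse organiser, from 10.99 to 15829 (at least 9.71), and the connexin gene Gjb6 from 3.15 to 1921 (at least 6.67). S100b (-0.30) and Ntsr2 (-0.23) lay within 2-fold. In the oligodendrocyte lineage 6 of 16 genes were higher and 4 lower. The higher ones included Plp2, Pmp22 (1.45) and Cldn11 (at least 2.41), of which Plp2 and Pmp22 are also made by other cells. Sox10, the lineage factor, went from 72509 to 15886 (-2.92), and Bcas1 (-2.73) and Cnp (-1.90) were lower beside Olig1. The proteoglycan gene Cspg4, known from oligodendrocyte precursors and pericytes, went from 138 to 7540.2 (5.05). The central myelin genes Mbp, Mobp and Mog lay within 2-fold, at -0.27, -0.83 and 0.79.

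Interferon-responsive genes were higher. Of 28, 17 were higher and 0 lower (median 1.41). Ifitm2, an antiviral membrane protein gene, went from 400.0 to 48672 (6.20), Bst2, which tethers budding virus, from 429 to 28415 (5.32), Irf7, a regulator of interferon production, from 456 to 19005 (4.65) and Isg20, an exonuclease gene, from 221 to 4314 (3.56). Gbp2 (3.71) and Ifit3 (at least 3.72) were also higher. Of the 28, 2 were measured on the neuron array alone, and Stat2 (0.00), Psmb8 (0.29) and Irf1 (0.31) lay near 0. The core of the interferon response element, GAAA followed by any 2 bases and GAAA again, was in 15 of 24 promoters of the list (62.5%), against 3.77% of all promoters and 3.40% of those of compared genes.

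The promoters of 3 of these genes are shown as examples of that element, 150 bases before the start as above, with matches on either strand in capitals.
Bst2: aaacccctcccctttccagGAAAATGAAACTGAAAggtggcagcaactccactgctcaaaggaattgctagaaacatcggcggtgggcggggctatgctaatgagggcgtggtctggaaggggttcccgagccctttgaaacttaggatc
Irf7: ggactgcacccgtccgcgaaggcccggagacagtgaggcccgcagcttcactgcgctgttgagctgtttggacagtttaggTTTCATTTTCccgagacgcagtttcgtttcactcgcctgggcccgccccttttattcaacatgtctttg
Isg20: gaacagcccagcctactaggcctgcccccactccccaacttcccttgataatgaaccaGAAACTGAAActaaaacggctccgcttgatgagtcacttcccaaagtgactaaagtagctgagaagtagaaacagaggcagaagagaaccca
The window of Bst2 lay at chr16:18254968-18255117 on the minus strand, that of Irf7 at chr1:205800024-205800173 on the minus strand and that of Isg20 at chr1:142239909-142240058 on the plus strand. Bst2 holds 2 overlapping matches, and Irf7 and Isg20 hold 1 each.

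Complement and chemokine genes were higher too. Of 21 microglia, macrophage and complement genes, 18 were higher and 0 lower (median 3.87), of which 13 were measured on the neuron array alone. Of those well above background on both arrays, 5 of 8 were higher, and the normexp median of the list was 1.55. Beside Serping1, C1s, a complement protease, went from 45.3 to 11565 (7.27), C3, the central complement protein, from 4.96 to 2489 (at least 7.04), and Cd14, the endotoxin co-receptor, from 2.81 to 3561 (at least 7.56). The microglial genes Csf1r (0.47) and C1qc (-0.66) lay within 2-fold. Of 29 chemokine and cytokine genes, 22 were higher and 2 lower (median 2.85), and 13 of 18 well above background on both arrays were higher. Ccl2, which draws monocytes, went from 335 to 34311 (5.95), Ccl7 from 6.71 to 4548 (at least 7.91), Ccl20 from 47.9 to 4481 (5.82) and Cxcl12, which guides migrating neuroblasts and granule cells, from 182 to 14484 (5.59). Ccl5 (-1.22) and the stem cell factor receptor gene Kit (at least 3.60-fold) were lower.

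Lysosomal proteases and adhesion molecules showed single large differences within moderate lists. Of 31 lysosomal genes, 12 were higher and 1 lower (median 0.64). The cathepsin genes Ctsk, Ctsh, Ctsc and Ctsz were higher by at least 9.68, 9.24, 7.15 and 5.77, while the enzyme genes Asah1 (-0.07) and Man2b1 (0.09) lay near 0. Of 25 adhesion genes, 10 were higher and 5 lower. Icam1, an adhesion receptor for leukocytes, went from 8.34 to 10627 (at least 9.13), Cdh13 from 67.7 to 4378 (5.29) and Vcam1, also found on quiescent stem cells, from 646 to 13783 (3.69). Cntn1, an axonal adhesion protein gene, went from 6146 to 1275 (-3.00), and Pcdh8 differed by -3.00. Of 13 axon guidance genes, 7 were higher and 2 lower, among them the semaphorin receptor gene Nrp1 (at least 4.35), Slit3 (3.52) and Sema3a (2.74), against Efna1 (-2.42).

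Signalling lists were mixed. Among 29 TGF-beta and BMP genes, 12 were higher and 3 lower: Ltbp1, which stores latent TGF-beta in matrix, went from 93.8 to 14473 (6.54), the activin subunit gene Inhba from 4.17 to 1538 (at least 6.35) and its antagonist Fst from 80.4 to 6546 (5.62), while the receptor genes Tgfbr2 (-0.10) and Acvr1 (-0.02) lay near 0. In the FGF, EGF and MAPK list, 15 of 33 were higher and 3 lower. The neuregulin gene Nrg1 reached 1724 (at least 6.51), Areg went from 446 to 8066 (3.45) and Egr1, an immediate early gene, from 132 to 2194 (3.33), while Nr4a1, another early gene, was lower (-2.50) and Fos differed by 0.01. Notch genes were lower more often than higher (6 and 2 of 13). The ligand gene Dll1 was at least 7.61-fold lower, Dll3 differed by -2.23 and the Notch-modifying enzyme gene Mfng by -3.09. Dlk1 (2.17) and the Notch target Hes1 (1.06) were higher. In the Wnt list, of 14 genes, 3 were higher, led by the secreted Wnt antagonist gene Dkk3 (6.62) and the ligand gene Wnt5a (at least 4.35), and 4 lower, led by the transcription factor gene Lef1 (-2.08). These Wnt shares, 21.4% and 28.6%, lay near the 21.9% and 26.9% of all genes compared. Retinoic acid genes had 8 of 14 higher and 3 lower (median 1.52, or 0.67 with normexp). The carrier gene Crabp2 went from 696 to 29069 (4.66) and the synthesis enzyme gene Aldh1a2 was higher by at least 5.71, while Cyp26b1, which degrades retinoic acid, went from 3924 to 577 (-3.49).

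Metabolic lists were mixed as well. Glycolysis and hypoxia genes had 8 of 27 lower and 4 higher (median -0.63), and the lower count ran from 4 with spike-in scaling to 17 with median scaling. The lactate exporter gene Slc16a3 went from 20.3 to 2115 (5.97), the neuronal glucose transporter gene Slc2a3 from 18.8 to 1033 (5.05) and the peptide hormone gene Adm from 504 to 14502 (4.12), while Pkm (-1.74) and Pfkm (-1.44) were lower. Of 29 antioxidant genes, 11 were higher, led by Gstm2 (4.34), Gsta1 (3.14) and the metallothionein gene Mt1 (2.64), and 3 were lower, among them Txnrd1 (-1.84). With median scaling these counts were 7 and 7. Ependymal and choroid plexus genes had 8 of 14 higher and 1 lower, with Ttr, the transthyretin gene, at 17057 on the neuron array (at least 9.82) and the water channel gene Aqp1 from 94.3 to 33146 (7.73). Endothelial genes had 6 of 10 higher, among them the sialomucin gene Emcn, from 2.78 to 4053 (at least 7.74), and 2 lower, among them the nitric oxide synthase gene Nos3 (at least 8.17-fold lower). Over members well above background on both arrays, 4 of 10 ependymal and 3 of 4 endothelial genes were higher. Schwann and ensheathing cell genes had 6 of 17 higher and 3 lower, and the neuropeptide Y gene Npy went from 4654 to 23632 (1.62). Positional transcription factor genes had 3 of 7 higher and 2 lower: Nr2f2 of the caudal forebrain went from 98.5 to 2981 (4.19) and Hoxb7 of the trunk from 591 to 176 (-2.47). Of 8 hedgehog and Hippo pathway genes, 5 were higher, led by the Hippo target Ankrd1 (at least 4.18), and 0 lower.

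Most probes had no gene symbol, and they did not all follow the named genes. Probes designed on TIGR consensus sequences were higher in 35.0% and lower in 18.1% of 2190 compared. Those on Ensembl transcripts were higher in 15.6% and lower in 29.5% of 6378, and those on ESTs and other GenBank entries were higher in 20.1% and lower in 16.7% of 6760. Probes of named genes were higher in 21.4% and lower in 26.7% of 8261. Among measured differences, the largest of unnamed probes stayed below that of Mgp in the higher direction and exceeded those of the named genes above in the lower one. The probe A_44_P375102 went from 33.0 to 104352 (10.90) and A_44_P1004323 from 46.8 to 52362 (9.40). In the other direction A_44_P562669 went from 2449.8 to 26.4 (-7.26) and A_44_P869212 from 9190.0 to 217.8 (-6.13). Among named genes with 2 or more compared probes (1378), the probes of a gene had a median SD of 0.158 log2 units. Probes of a gene lay on both sides of the threshold in 240 cases, with the higher and the lower threshold counted separately. In 1 gene, counted at both, probes were over 2-fold in opposite directions.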

How the data were processed

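One-colour Agilent rat arrays (Cy3) were quantified in Agilent Feature Extraction 10.5.1.1, as the submitters' processing notes and the headers state. The probe design names the build rn4, per the file headers, and no coordinates of it were used. The deposited values are processed signal intensities after background subtraction and spatial detrending, per the file headers, with no scaling between arrays. The authors' deposited series table holds the same values as the scanner files.

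Control spots and probes whose spots were all marked as outliers were left out, spots of a probe were averaged, and log2 intensity, computed from the deposited intensities, was set relative to the 75th percentile of each array. A probe with several spots counted as well above background only if all were. The share of probes well above background was 60.2% on the stem cell array and 66.5% on the neuron array, and 0 spots were saturated. Gene symbols came from matching probe accessions to RefSeq: 10783 probes had 1 symbol, 0 several and 29975 none. A gene was represented by whichever of its probes had the highest mean log2 signal across all 4 arrays, and for 1597 genes with 2 or more probes this was a choice.

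With 1 array a group no model was fitted; differences of 1 log2 unit or more were counted. A list's median takes bounds at their bound. The computation with bounds was tested on simulated data. There, detection followed 1 sharp floor, so the simulation could not show how bounds fare where the software marks each spot. Alternatives changed the background correction, the scaling, the filter on dim probes, the probe of a gene, the source of the values and the treatment of outliers. Normexp background correction took the median spot and background signals, with an offset of 50. R 4.3.3, limma 3.58.1 (background correction and quantile normalization) and Python 3.11.15 were used.

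The gene lists, markers and motifs were chosen with earlier results of these data known. Genes named were the 20 largest differences per direction on both arrays, up to 12 bounds per direction, up to 6 members per direction of each list and the 4 nearest to 0, all markers, Ins1 and Ins2, and the 2 largest unnamed probes per direction. Atf3, Slc17a6 and the genes reported on neither array (Neurod1, Neurog1, Slc17a7, Gad2, Camk2a, Gria1 and Grin2b) were named after their values were seen. Some genes are not reported here.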

Additional observations from a re-analysis of the deposited data

Results flagged for a closer look

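The same contrast was available for olfactory bulb cells, on 2 other arrays. Of the 6652 genes compared in hippocampal cells, only 24 were over 2-fold higher in one source and over 2-fold lower in the other. Some of the 24 rest on bounds, and genes that moved the same way in both sources were not counted. Of the 24, 9 were higher and 15 lower in the hippocampal cells. Each source had 1 array a side, so the difference between them was not tested.

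Atf3, a stress-induced transcription factor gene, had a signal of 1721 on the stem cell array and 494 on the neuron array in hippocampal cells (-2.53) and a difference of 3.15 in bulb cells. Ndrg1, a gene induced by hypoxia, went from 1959 to 903 in hippocampal cells (-1.84) and differed by 1.23 in bulb cells. Ccl5, a chemokine gene, differed by -1.22 against at least 3.83. Ocln, which encodes the tight junction protein occludin, was higher in hippocampal cells (2.31) and lower in bulb cells (-1.78). Cdh19, a cadherin gene of Schwann cell precursors, was not well above background on the hippocampal neuron array and at least 2.37-fold lower there (log2 -1.25), against 1.14 in bulb cells.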

How the results depend on the processing

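With 1 array a group no difference has an error across cultures, and no array could be left out. No paired analysis was possible because each group held 1 array and no result came from a test. Of 10 alternatives, these moved a count by over 1.5 times. Normexp background correction left 3194 probes higher. Median scaling gave 11610 probes and 2853 genes lower, and spike-in scaling 3718 probes and 1005 genes lower. With only probes well above background on both arrays, 3345 probes and 829 genes were higher. The other alternatives kept all 4 counts within 1.5 times, and the authors' deposited table gave identical ones. Of 271 named genes over 2-fold, 0 changed sign and 28 fell under 2-fold with at least 1 alternative: Ank3, Calb1, Ccl5, Cct2, Cdh19, Chga, Cldn11, Dlk1, Fabp7, Hes1, Ins1, Ins2, Insig1, Irs1, Nes, Notch3, Nsdhl, Pfkm, Pkm, Pmp22, Prph, Ptprz1, Rpl18, Scn8a, Slc1a5, Syn1, Tnr and Vgf. Median and spike-in scaling moved genes by about -0.46 and 0.42, so neither could change the sign of a 2-fold difference. Most of these genes were also named for large differences, so the count of 0 says little about robustness. The count of members higher or lower moved by over 1.5 times, counts from or to 0 included, in 13 of the 49 lists with normexp, 18 with median scaling, 16 with quantile normalization, 22 with spike-in scaling, 23 with both arrays required, 4 with no filter and 2 with probe means. Examples beside those above follow. With normexp the higher counts were 2 in place of 5 receptor, 5 in place of 9 channel, 2 in place of 5 hedgehog and Hippo and 0 in place of 2 Notch genes, and the lower ones 0 in place of 3 TGF-beta and BMP and 0 in place of 2 insulin and IGF genes. With median scaling the lower counts were 10 in place of 6 receptor, 5 in place of 2 insulin and IGF and 3 in place of 0 interferon genes. With spike-in scaling they were 3 in place of 6 receptor, 2 in place of 6 lipid and 2 in place of 4 Wnt genes, and with quantile normalization 4 in place of 8 hypoxia and glycolysis genes. Over members well above background on both arrays alone, 7 of 24 TGF-beta and BMP, 9 of 24 FGF and EGF, 5 of 19 lipid, 5 of 17 adhesion, 4 of 7 guidance, 3 of 12 channel, 3 of 17 progenitor and 2 of 14 young neuron genes were higher and 7 of 18 synaptic vesicle genes lower. The medians of 5 of 49 lists changed sign over the scalings and background corrections: cyclins, inhibitors and growth arrest genes (-0.11 to 0.96), fatty acid and lipid transport (-0.50 to 0.51), positional genes (-0.12 to 0.94), channels (-0.27 to 0.46) and Wnt (-0.76 to 0.12). Of the 29 lists with a median of 1 log2 unit or more either way, 0 did, but 8 fell below 1 with normexp, among them endothelial genes (2.11 to 0.58) and ependymal genes (1.76 to 0.68). The shifts of median and spike-in scaling were too small to change the sign of those 29 medians. Choosing the probe by its mean across the 2 hippocampal arrays, an alternative chosen after seeing the data, gave 1456 genes higher and 1790 lower. Signal near background limits how large a difference can be measured, which the bounds carry only for the floor and scaling used.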
